A study of Mus musculus with 15 samples.

Results

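The 38 genes of the hypoxia response and of glycolysis, among 53337 genes summed from the deposited transcript table, were followed in embryonic day (E) 18 mouse dorsal forebrain after maternal infusion of arginine vasopressin (AVP), a model of preeclampsia. They were listed by name and role without a cut on measured values, but with earlier results of these data known. Of them, 5 belong to oxygen sensing and the hypoxia-inducible factor (HIF) itself, 18 are genes that HIF is known to induce, and 15 carry the core steps of glycolysis and lactate exchange. The comparison asks whether forebrains of AVP-exposed offspring carried a transcript signature of low oxygen, and whether HIF-responsive genes moved apart from the housekeeping enzymes of glycolysis. All dams were C57BL/6J mice that carried a subcutaneous osmotic minipump before and throughout pregnancy, loaded with AVP or with saline. The libraries came from the dorsal forebrains of 4 males and 3 females exposed to AVP and of 4 males and 4 females exposed to saline, and the study took its brains from 8 litters. Within a group each brain came from its own litter, but a male and a female may share one, and a further AVP female that the study set aside as an outlier was not analysed here.

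HIF is a pair of proteins, an oxygen-labile alpha subunit (Hif1a or Epas1) and the constant partner Arnt. In ample oxygen the prolyl hydroxylases (Egln genes) mark the alpha subunit and Vhl sends it for destruction, whereas in low oxygen it persists, pairs with Arnt and binds short promoter motifs. The alpha subunit is governed mainly at the protein level, so Hif1a mRNA is a poor reading of HIF activity, and target genes such as Ankrd37, Egln3, Bnip3 and Pdk1 are the usual transcript readout. Several glycolytic enzymes are HIF targets as well, but they are expressed at high levels in every cell and respond over a narrower range.

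The library labelled saline male 3 went against its label. Levels are given as TPM, in which each transcript's share of a library is corrected for its length and all shares add to the same total. This library held 266 TPM of Xist, as against at most 1.13 TPM in the other males, and its 4 Y-linked genes summed to 0.489 TPM, as against 102 to 155 TPM in the other males. Females held 174 to 294 TPM of Xist and 0.25 to 1.01 TPM of the same Y-linked genes. The library was kept under its label. Counts of genes with a p under 0.05 and the male differences of Arnt, Bnip3l, Pfkfb3, Pfkfb4, Pfkp and Vegfa are also given without it. Most other values of saline males, such as the means over gene groups, are given only with it. Markers of dorsal forebrain were all detected, with summed levels of 1120 to 1598 TPM in AVP males, 1295 to 1460 TPM in saline males, 1305 to 1475 TPM in AVP females and 1173 to 1475 TPM in saline females. Since TPM keep no trace of how many reads were sequenced, the depth behind each value is unknown. Transcripts annotated as microRNA took 6.15% to 8.10% of the TPM in saline males and 7.58% to 14.3% in AVP males, with 6.79% to 8.47% in saline and 6.28% to 12.7% in AVP females. The median AVP difference of all 15271 genes tested in males was -0.10 on the log2 scale. With median-of-ratios scaling, in which each library is scaled by its median ratio to a reference, the same median was 0.003. That scaling brings the median near 0 by design, so this value says nothing on the origin of the shift, which was not tested. A male difference near -0.10 is no larger than that of the median gene.

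Most of the promoters read hold the letters that HIF is known to bind. For 33 of the 38 genes, RefSeq promoters of the GRCm38.p6 assembly were at hand, and for each the listed start nearest to the gene's most abundant transcript was used, which lay within 100 bases of it for 27 genes. For Vegfa that start lay inside the gene and 218 of the 250 bases before it were exonic, so Vegfa was left out of the counts that follow, which leaves 32 genes. In 6 of these, over 100 of the 250 bases were exonic too. In the 250 bases before the start, the core of the hypoxia response element was searched as ACGTG or GCGTG on both strands. All 13 HIF-responsive genes among them held at least 1 match, as did 12 of 15 core glycolysis genes and 3 of 4 sensing genes. The HIF-responsive genes Slc2a3, Bnip3l, Hmox1 and Ndrg1 had no listed promoter and are not counted. Over all 32851 promoters of the same length the share was 38.6%. Both motifs hold the letters CG, and these promoters were not matched to the members for base composition. The part of composition in the contrast was not tested. For ACGTG alone, the shares were 69.2% of HIF-responsive genes, 33.3% of core glycolysis genes and 16.6% of all promoters. The palindrome CACGTG, which reads as ACGTG on both strands and is also the E-box bound by other factors, was in 5 of the 32 promoters and in 6.02% of all. A match is a run of letters, not a measured binding site. These 6 promoters, all of which hold ACGTG on at least 1 strand, were picked after values were seen to show how the matches lie in 4 HIF-responsive genes and, for comparison, in 2 core glycolysis genes, with every match in capitals, 5′ to 3′ on the strand of the gene, up to the base before the start:
Ankrd37: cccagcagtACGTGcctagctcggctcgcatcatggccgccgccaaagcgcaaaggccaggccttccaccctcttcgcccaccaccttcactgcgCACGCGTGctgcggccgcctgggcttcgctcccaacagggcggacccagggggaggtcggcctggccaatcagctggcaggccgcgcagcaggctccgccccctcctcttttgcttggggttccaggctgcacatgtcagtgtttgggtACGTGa
Egln3: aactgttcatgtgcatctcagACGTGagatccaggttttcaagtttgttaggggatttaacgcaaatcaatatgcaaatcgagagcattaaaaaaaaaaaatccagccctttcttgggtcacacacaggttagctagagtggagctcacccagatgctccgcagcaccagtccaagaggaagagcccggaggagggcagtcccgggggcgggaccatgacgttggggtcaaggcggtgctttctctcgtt
Bnip3: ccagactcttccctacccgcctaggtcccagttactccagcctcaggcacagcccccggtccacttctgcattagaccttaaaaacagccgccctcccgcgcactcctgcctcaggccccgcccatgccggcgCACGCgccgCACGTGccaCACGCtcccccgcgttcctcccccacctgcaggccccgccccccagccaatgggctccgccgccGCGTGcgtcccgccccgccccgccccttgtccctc
Pfkfb3: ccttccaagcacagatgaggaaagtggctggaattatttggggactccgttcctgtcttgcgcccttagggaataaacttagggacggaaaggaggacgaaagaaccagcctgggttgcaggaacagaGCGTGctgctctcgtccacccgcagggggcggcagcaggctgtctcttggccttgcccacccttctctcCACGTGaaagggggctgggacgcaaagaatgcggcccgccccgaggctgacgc
Pgk1: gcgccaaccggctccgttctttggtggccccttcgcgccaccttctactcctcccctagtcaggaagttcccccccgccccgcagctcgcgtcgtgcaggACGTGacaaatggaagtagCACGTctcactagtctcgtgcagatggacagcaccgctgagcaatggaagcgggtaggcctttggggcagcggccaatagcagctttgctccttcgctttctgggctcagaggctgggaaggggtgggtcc
Ldha: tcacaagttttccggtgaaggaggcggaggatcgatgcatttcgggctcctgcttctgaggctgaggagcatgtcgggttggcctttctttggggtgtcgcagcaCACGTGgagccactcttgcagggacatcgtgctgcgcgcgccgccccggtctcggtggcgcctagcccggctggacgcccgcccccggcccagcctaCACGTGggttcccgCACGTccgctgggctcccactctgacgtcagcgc
In the order shown they lie at chr8:45999851-46000100 on the minus strand, chr12:54203875-54204124 on the minus strand, chr7:138909507-138909756 on the minus strand, chr2:11502091-11502340 on the minus strand, chrX:106186850-106187099 on the plus strand, and chr7:46845554-46845803 on the plus strand. Ankrd37, an ankyrin repeat protein induced by HIF, held 4 matches, the nearest beginning 6 bases before the start. Bnip3, a mitophagy receptor, held 5, with a CACGTG at 108 bases. The Ldha promoter held 5, in a pair of CACGTG palindromes at 145 and 48 bases and a CACGT at 34 bases, and Pgk1 held ACGTG at 150 bases and its reverse complement at 131 bases. Egln3 held 1 match, at 229 bases.

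TPM are per length of transcript, so levels can be set side by side across genes. Gapdh was highest, at 1052 to 1311 TPM over the 15 libraries, followed by Pkm at 425 to 544, Ldha at 281 to 416 and Eno1 at 237 to 376 TPM. The other core enzymes held middle to high levels, with Tpi1 at 196 to 281, Pgam1 at 198 to 261, Pgk1 at 187 to 246, Ldhb at 185 to 225, Aldoa at 146 to 227 and Gpi1 at 128 to 214 TPM. Pfkp lay at 57.0 to 199.9, Hk1 at 53.5 to 100.01, Aldoc at 63.8 to 102 and Pfkl at 47.8 to 69.1 TPM, and the lactate carrier Slc16a1 at 7.35 to 13.3 TPM. Ranges of neighbours in this order can overlap, as for Tpi1, Pgam1 and Pgk1, which does not show that they are equal within a library. Pgam1, for example, exceeded Pgk1 in every library but saline female 2 (229 against 246 TPM).

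HIF-responsive genes lay at lower levels than most core enzymes. Bnip3l, a mitophagy receptor, lay at 98.1 to 124 TPM and Vegfa, the vascular growth factor, at 54.1 to 169.8 TPM. Ddit4, an inhibitor of mTORC1, lay at 66.0 to 109, Ndrg1 at 61.9 to 89.6, Bnip3 at 43.8 to 59.1, the histone demethylase Kdm3a at 30.2 to 71.8 and the glucose carriers Slc2a1 and Slc2a3 at 28.5 to 54.4 and 16.3 to 33.7 TPM. At the low end were Adm (adrenomedullin, 2.67 to 6.31 TPM), the heme oxygenase Hmox1 (3.69 to 7.05), Hk2 (2.01 to 6.74) and the lactate exporter Slc16a3 (1.66 to 3.52). Car9, a carbonic anhydrase that is among the most oxygen-sensitive HIF targets, stayed at 0.0336 to 0.651 TPM, under the 1 TPM filter in all 15 libraries, and was the only one of the 38 genes not tested. Its values were 0.0606, 0.07, 0.0336 and 0.221 TPM in AVP males, 0.111, 0.178, 0.177 and 0.177 in saline males, 0.0646, 0.153 and 0.307 in AVP females and 0.231, 0.108, 0.651 and 0.348 in saline females, so its highest value was in a saline library.

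Paired isozymes kept their order in every library. The ratio of Hif1a to Epas1 was 4.41 to 7.91, of the ubiquitous hexokinase Hk1 to the inducible Hk2 11.6 to 48.8, and of Aldoa to the brain aldolase Aldoc 2.21 at the median. Ldha, the subunit that favours lactate production, exceeded Ldhb 1.33 to 2.12 times, and Slc16a1 exceeded Slc16a3 2.97 to 6.19 times. All these ratios were above 1 in 15 of 15 libraries. The mean ratio of Ldha to Ldhb was 1.65 ± 0.20 (SD, n = 4) in AVP males and 1.73 ± 0.13 (n = 4) in saline males, with 1.60 ± 0.24 (n = 3) in AVP and 1.80 ± 0.31 (n = 4) in saline females, and these groups overlapped. Processed copies can share reads with some of these genes. Pgk1-rs7 was assigned 0 to 15.3 TPM, Pgam1-ps2 0 to 40.0 TPM and a second Aldoa gene ID, left out here, 3.71 to 8.04 TPM.

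**Figure D1:**
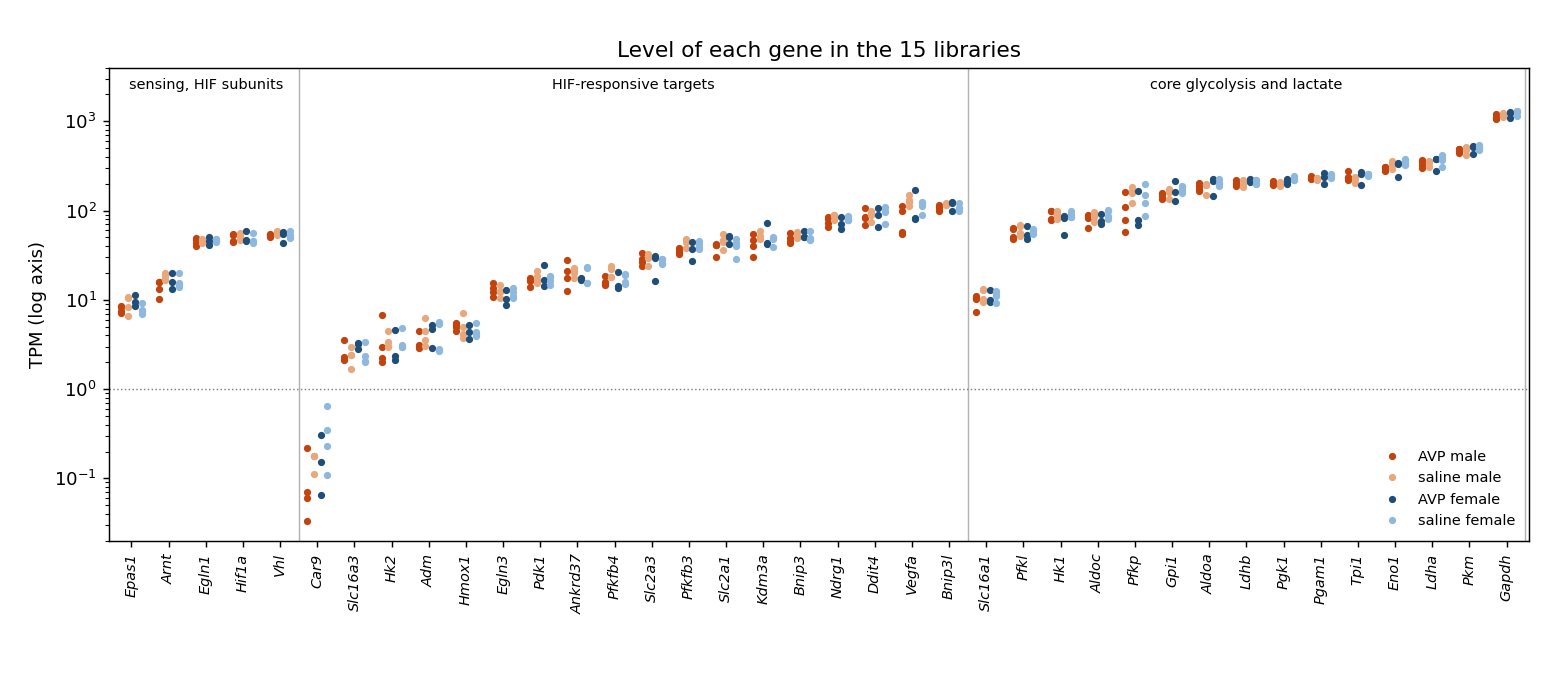
Level of each of the 38 genes (TPM on a log axis, each point 1 library, coloured by treatment and sex), ordered by median within sensing, HIF-responsive and glycolytic genes, with a dotted line at 1 TPM. Car9 lies under the line in all libraries, Gapdh lies between 1052 and 1311 TPM, and for most genes the 4 groups lie on top of each other.

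No gene of the 37 tested passed an adjusted p of 0.05 (two-sided limma on log2(TPM + 0.5), Benjamini-Hochberg over all genes tested) in males, in females, in both sexes together, in the difference of the AVP effect between sexes, or between the sexes. Over all genes the shares called were 0.00655% in males (1 gene), and 0% in each of the other 4 comparisons. The smallest adjusted p among the 37 was 0.304 in males, 0.999 in females and 0.462 in both sexes. At an unadjusted p under 0.05, 6 of the 37 were lower and 0 higher with AVP in males, beside 12.4% lower and 1.11% higher of all genes tested. In females 0 of the 37 were lower and 0 higher, beside 2.17% and 2.34% of all genes. In both sexes with sex as a covariate, 6 of 37 were lower and 0 higher, beside 9.69% and 0.683%. The 6 in males are 16.2% of the 37 against the background of 12.4%. Without the library labelled saline male 3, 3 of the 6 in males (Pfkfb3, Vegfa and Arnt) and 3 of the 6 in both sexes (Pfkfb3, Ndrg1 and Pfkp) had a p under 0.05, while the share of all genes that were lower by the same rule went from 12.4% to 7.1% in males and from 9.69% to 6.56% in both sexes. Under median-of-ratios scaling, 3 were lower and 2 higher in males (4.98% and 6.56% of all genes), and 3 lower and 0 higher in both sexes (4.47% and 2.91%).

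The 95% intervals show how large an increase each gene's values allow, counted from 0 on unscaled TPM. Each holds for 1 gene and is not adjusted for the number of genes. Counted from the male median of all genes, -0.10, the male upper ends lie higher. For all 17 HIF-responsive genes tested, the upper end of the 95% interval of the AVP difference was under a log2 change of 1, a doubling, in males, in females and in both sexes. In males 15 of the 17 upper ends were also under 0.5, with the largest at 0.62 for Hk2, and in females 11 of 17 were, with the largest at 0.80 for Adm. All 15 core glycolysis genes had upper ends under 0.5 in both sexes taken singly. Among groups by role in males, the median log2 difference was -0.10 for the 5 sensing genes, -0.14 for the 17 HIF-responsive genes and -0.03 for the 15 core glycolysis genes, beside -0.10 for all genes tested. In females the medians were 0.02, -0.09 and -0.09, beside -0.05 for all genes. Relative to all genes, 11 of 17 HIF-responsive genes lay below the male median and 11 of 15 core glycolysis genes above it. In females 14 of 15 core glycolysis genes lay below the median. AVP female 3 was the lowest of the 15 libraries for 7 core glycolysis genes. With single female libraries left out, the difference rose to as much as 0.11 for Aldoa and 0.09 for Gpi1. For Hk1 and Eno1 it stayed negative, at most -0.07 and -0.06.

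**Figure D2:**
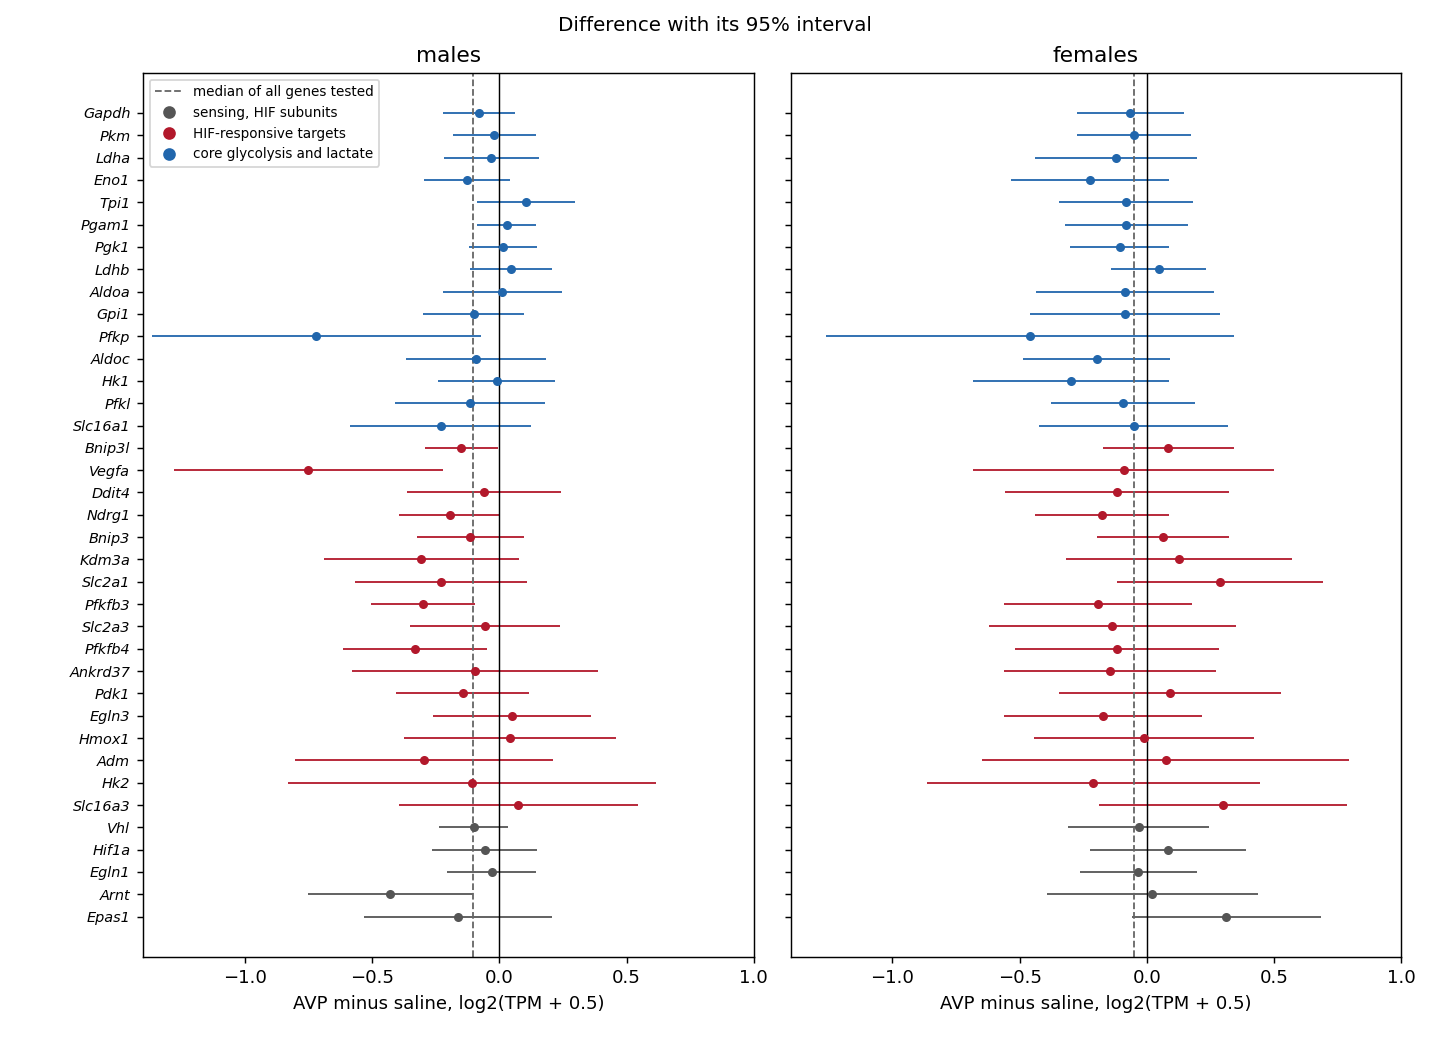
Difference of AVP minus saline for the 37 genes tested, in males (left) and females (right), on the log2(TPM + 0.5) scale with 95% intervals, coloured by role, with a dashed line at the median of all genes tested. Most points lie near the dashed line, -0.10 in males and -0.05 in females, and Vegfa and Pfkp lie farthest to the left in males, at -0.75 and -0.72.

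Of the sensing genes, Hif1a (chr12:73901375-73947530), the labile HIF subunit, measured 44.7, 46.0, 55.1 and 54.0 TPM in AVP males and 51.6, 47.4, 55.8 and 52.6 TPM in saline males. In females it measured 47.1, 59.3 and 45.3 TPM with AVP and 45.9, 42.9, 56.0 and 45.7 TPM with saline. The groups overlapped in both sexes, and the log2 difference was -0.06 ± 0.09 (SE) in males and 0.08 ± 0.13 in females. Egln1, the main oxygen sensor, measured 40.5, 43.1, 46.9 and 49.3 TPM in AVP males and 43.5, 48.0, 45.6 and 46.3 in saline males. Female Egln1 values were 45.2, 50.3 and 41.1 TPM with AVP and 47.8, 45.3, 48.3 and 44.6 with saline, again overlapping. Vhl, the ubiquitin ligase subunit that removes HIF alpha, measured 51.0, 54.6, 54.0 and 53.7 TPM in AVP males, 59.4, 57.6, 53.9 and 58.1 in saline males, 57.1, 55.2 and 43.8 in AVP females and 52.7, 49.4, 58.9 and 51.0 in saline females. Its male difference of -0.10 ± 0.06 equalled the median of all genes.

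Arnt (chr3:95434388-95497240), the partner of the HIF alpha subunits, was lower in every AVP male, at 10.3, 13.3, 15.8 and 16.0 TPM, than in any saline male, at 19.4, 16.8, 20.2 and 18.1 TPM. Such separation, AVP lower, held for 2 of the 37 genes in males (Arnt and Bnip3l) and for 6.54% of all genes tested, while AVP higher without overlap held for 0 of 37 and 0.733% of all. In females no gene of the 37 separated, beside 2.77% lower and 2.78% higher of all genes. The male difference of Arnt was -0.43 ± 0.14 (SE), with an adjusted limma p of 0.31. An exact two-sided permutation test over the 8 libraries gave p = 0.0286, the smallest it can give. Under median-of-ratios scaling the difference was -0.32, and without the library labelled saline male 3 it was -0.39. AVP females, at 16.0, 19.8 and 13.2 TPM, and saline females, at 14.6, 15.6, 13.97 and 20.01 TPM, overlapped, with a difference of 0.02 ± 0.18.

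Epas1 (HIF2 alpha), which is strongest in endothelium, differed in opposite directions in the sexes, without passing a test in either. It measured 7.04, 8.26, 7.60 and 8.59 TPM in AVP males and 6.52, 10.8, 10.6 and 8.23 in saline males, a difference of -0.16 ± 0.16. In females it measured 9.50, 11.4 and 8.64 TPM with AVP and 9.21, 7.501, 7.70 and 6.92 with saline, a difference of 0.31 ± 0.16 (exact permutation p = 0.0857, adjusted limma p = 0.999). The difference of the AVP effect, female minus male, was 0.47 ± 0.23 with an adjusted p of 0.896. In the same female libraries the 8 endothelial markers summed to 212 to 244 TPM with AVP and 132 to 209 TPM with saline, and 2 of 7 tested were higher at an unadjusted p under 0.05, none of them lower. Meningeal fibroblast markers were higher in AVP females for 7 of 8, border macrophage markers for 4 of 5, mural cell markers for 3 of 6, choroid plexus markers for 2 of 5 and red blood cell markers for 5 of 5 tested, by the same rule. Meningeal markers summed to 191 to 274 TPM in AVP females and 113 to 135 TPM in saline females, and mural markers to 139 to 150.4 TPM and 98.5 to 122 TPM. Red blood cell markers summed to 5129 to 13658 TPM in AVP females and 2241 to 5707 TPM in saline females. Microglial, radial glial and striatal markers had 0 such calls. All 6 striatal markers were nevertheless lower in AVP females, with a median log2 difference of -0.58. Their sums overlapped, at 32.8 to 109 TPM with AVP and 68.2 to 121 TPM with saline. The part of these cells in the Epas1 values was not tested, and in bulk tissue fewer cells of a type and less RNA per cell cannot be told apart.

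Ankrd37, Egln3 and Bnip3, HIF-responsive genes with a sharp oxygen response, gave differences on both sides of 0, none of which passed the test. Ankrd37 measured 12.5, 17.8, 28.1 and 20.9 TPM in AVP males and 20.1, 22.8, 17.7 and 21.2 in saline males, so AVP males held both the lowest and the highest of these 8 values. Among females it lay at 16.98, 17.6 and 16.7 TPM with AVP and 23.6, 15.4, 15.5 and 22.9 with saline. Its log2 difference was -0.10 ± 0.21 (95% interval -0.58 to 0.39) in males and -0.15 ± 0.18 (-0.56 to 0.27) in females. Protein-coding transcripts, 54.7% of its TPM, measured 8.00, 11.7, 14.9 and 10.4 TPM in AVP males and 12.1, 8.60, 9.47 and 8.94 in saline males. In females they measured 14.3, 9.38 and 9.56 TPM with AVP and 13.9, 9.73, 12.2 and 5.38 with saline. These coding values overlapped in both sexes, and their female difference, rescaled to the same total, was 0.19 ± 0.29. Egln3, the hydroxylase that HIF induces as feedback, measured 13.6, 15.5, 10.7 and 12.2 TPM in AVP males, 10.6, 14.6, 12.3 and 12.7 in saline males, 12.9, 10.2 and 8.69 in AVP females and 12.3, 10.5, 13.7 and 11.1 in saline females. The Egln3 difference was 0.05 ± 0.14 in males and -0.17 ± 0.17 in females, with overlap in both. Bnip3 measured 43.8, 56.7, 49.2 and 45.8 TPM in AVP males and 49.9, 51.7, 58.1 and 51.5 in saline males, then 50.1, 58.8 and 50.9 in AVP females and 48.3, 47.4, 59.1 and 49.3 in saline females. For Bnip3 the differences were -0.11 ± 0.09 and 0.06 ± 0.11.

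Pdk1, a pyruvate dehydrogenase kinase, measured 13.9, 17.7, 16.7 and 16.4 TPM in AVP males and 15.7, 16.6, 20.98 and 18.6 in saline males. Female Pdk1 values were 16.6, 24.5 and 14.3 TPM with AVP and 18.0, 14.7, 18.7 and 16.3 with saline. The highest of the 15 values was in AVP female 2, and the groups overlapped in both sexes. Adm, a vasodilator peptide, measured 2.86, 4.48, 3.03 and 3.16 TPM in AVP males and 3.08, 6.31, 4.50 and 3.52 in saline males. Its female values were 4.74, 5.19 and 2.86 TPM with AVP and 5.69, 5.31, 2.67 and 2.84 with saline, with lower and higher libraries in each group. Ddit4 measured 85.7, 107, 68.4 and 81.8 TPM in AVP males, 90.3, 97.9, 90.5 and 75.5 in saline males, 107, 88.8 and 66.0 in AVP females and 99.2, 109, 97.2 and 71.0 in saline females, with overlap throughout. The male differences were -0.14 ± 0.12 for Pdk1, -0.30 ± 0.22 for Adm and -0.06 ± 0.13 for Ddit4, and the female ones 0.09 ± 0.19, 0.07 ± 0.32 and -0.12 ± 0.19. Slc2a3, Hk2, Hmox1, Slc16a3 and Kdm3a had male differences of -0.06, -0.11, 0.04, 0.07 and -0.31, and female ones of -0.14, -0.21, -0.01, 0.30 and 0.13, and none had an unadjusted p under 0.05.

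Slc2a1, the glucose carrier of the blood-brain barrier, was on average lower with AVP in males and higher with AVP in females, again without passing a test. AVP males held 29.9, 41.1, 41.1 and 42.5 TPM and saline males 36.0, 54.4, 47.2 and 43.9 TPM. AVP females held 50.4, 52.2 and 42.3 TPM and saline females 43.6, 47.6, 40.4 and 28.5 TPM. The difference was -0.23 ± 0.15 in males and 0.29 ± 0.18 in females, and the difference between the sexes was 0.52 ± 0.24 with an adjusted limma p of 0.896. The endothelial marker sums given for Epas1 apply here too, and in males they were 170 to 195 TPM with AVP and 144 to 263 TPM with saline.

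Pfkfb3, the inducible kinase that makes the activator of phosphofructokinase, had the smallest limma p of the 37 genes in males and in both sexes. It measured 32.6, 34.7, 36.0 and 38.4 TPM in AVP males and 46.0, 37.7, 47.6 and 44.1 in saline males, where only saline male 2 fell within the AVP range. Female values were 37.5, 44.2 and 27.5 TPM with AVP and 39.6, 37.5, 45.2 and 41.9 with saline. The difference was -0.30 ± 0.09 in males (exact permutation p = 0.0571, adjusted limma p = 0.304) and -0.25 ± 0.09 in both sexes (exact permutation p = 0.0171, adjusted limma p = 0.462). In both sexes together, libraries were permuted within each sex. In males median-of-ratios scaling gave -0.19, and leaving out the library labelled saline male 3 gave -0.26. Its relative Pfkfb4 measured 14.8, 15.7, 15.3 and 18.6 TPM in AVP males, 22.2, 17.8, 24.2 and 17.8 in saline males, 14.4, 20.5 and 13.6 in AVP females and 19.01, 15.2, 15.8 and 19.5 in saline females. Its male difference was -0.33 ± 0.13 (exact permutation p = 0.0857, adjusted limma p = 0.324), and -0.25 without the library labelled saline male 3.

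Bnip3l was lower in each AVP male, at 98.4, 115, 103 and 109.9 TPM, than in each saline male, at 121, 116, 119 and 117 TPM, a difference of -0.15 ± 0.06 (exact permutation p = 0.0286, adjusted limma p = 0.356). AVP females held 121, 124 and 99.9 TPM and saline females 106, 98.1, 123 and 106. Its male difference lay close to the median of all genes and was -0.04 under median-of-ratios scaling and 0.02 over protein-coding transcripts alone, and -0.15 without the library labelled saline male 3. Ndrg1, a stress-induced gene of cell differentiation, measured 79.7, 84.1, 65.6 and 73.3 TPM in AVP males and 89.6, 78.7, 89.5 and 87.9 in saline males. Female Ndrg1 values were 84.1, 61.9 and 71.6 TPM with AVP and 79.2, 87.8, 79.3 and 79.3 with saline, and both sexes overlapped. Over both sexes its difference was -0.19 ± 0.07 (exact permutation p = 0.0167, adjusted limma p = 0.462), and -0.11 under median-of-ratios scaling.

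Vegfa (chr17:46016993-46032369) had the largest male difference of the 37 genes tested. Its values were 54.1, 57.4, 113 and 97.8 TPM in AVP males and 126, 131, 150.0 and 113 TPM in saline males. AVP male 1 and AVP male 2 lay far below the rest, whereas AVP male 3 lay just above the lowest saline male. Females held 81.7, 169.8 and 81.0 TPM with AVP and 112, 123, 88.5 and 123 TPM with saline, where AVP female 2 was the highest of all 15 libraries and the other AVP females were below every saline female. The log2 difference was -0.75 ± 0.23 in males (exact permutation p = 0.0571, adjusted limma p = 0.304), -0.09 ± 0.26 in females and -0.45 ± 0.20 in both sexes (exact permutation p = 0.0747, adjusted limma p = 0.477). The library numbers in the labels fall into runs, 1 to 8 and 13 to 20, and every group has libraries in both. Within the run 1 to 8 the male difference of Vegfa was -1.19, and within the run 13 to 20 it was -0.31. In females the Vegfa difference was -0.44 without AVP female 2 and 0.09 without AVP female 3, so its direction there rests on single libraries. In males without the library labelled saline male 3 it was -0.68.

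Pfkp (chr13:6579768-6648777), the platelet-type phosphofructokinase, followed the same libraries. It measured 78.6, 57.0, 161 and 109 TPM in AVP males, 184, 121, 168 and 157 in saline males, 79.2, 167 and 68.2 in AVP females and 148, 122, 87.01 and 199.9 in saline females. Again AVP male 1, AVP male 2, AVP female 1, AVP female 3 and saline female 3 were the low ones. The difference was -0.72 ± 0.29 in males (exact permutation p = 0.0857, adjusted limma p = 0.333), -0.46 ± 0.35 in females (-0.85 to -0.21 when single libraries were left out) and -0.60 ± 0.24 in both sexes. In males it was -1.15 within the run 1 to 8, -0.29 within the run 13 to 20 and -0.68 without the library labelled saline male 3. These genes had the largest spread of the members above 10 TPM, with a highest value 3.14 times (Vegfa) and 3.50 times (Pfkp) the lowest.

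Much of the Vegfa and Pfkp signal lay in transcripts not annotated as protein coding. Of the summed Vegfa TPM, 41.4% came from protein-coding transcripts and 58.6% from transcripts annotated as retained intron, such as Vegfa-205 and Vegfa-209, of 874 and 463 bases. For Pfkp 8.94% was protein coding, 69.0% retained intron and 22.1% marked for nonsense-mediated decay. Among the other core glycolysis genes the protein-coding share was 55.6% for Gpi1 and 72.9% for Pfkl, and above 95% for the rest. Of HIF-responsive genes above 10 TPM, Ankrd37 (54.7%), Slc2a1 (58.0%), Pfkfb4 (60.4%) and Kdm3a (61.9%) were the next lowest. Protein-coding Vegfa measured 22.3, 32.1, 46.6 and 42.0 TPM in AVP males, 52.9, 46.8, 60.9 and 42.5 in saline males, 42.1, 58.5 and 35.8 in AVP females and 49.4, 53.7, 37.8 and 47.6 in saline females. Its retained-intron transcripts measured 31.9, 25.3, 66.6 and 55.8 TPM in AVP males, 72.7, 84.1, 89.0 and 70.5 in saline males, 39.6, 111 and 45.1 in AVP females and 62.8, 69.3, 50.7 and 75.9 in saline females. The coding values spread 2.74-fold from lowest to highest and overlapped in both sexes. Over protein-coding transcripts alone, rescaled to the same total, the male difference was -0.51 for Vegfa, -0.41 for Pfkp and -0.37 for Arnt, with adjusted p by limma of 0.446, 0.422 and 0.422.

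**Figure D3:**
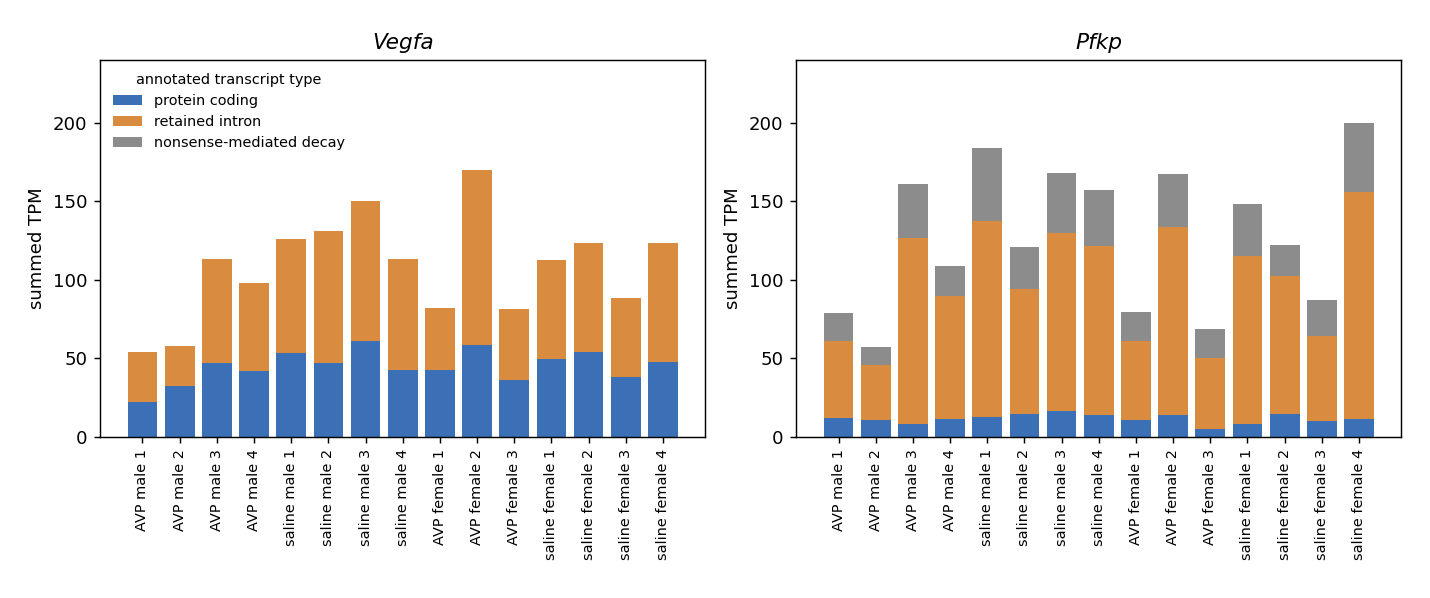
Summed TPM of Vegfa (left) and Pfkp (right) in each library, stacked by annotated transcript type. AVP male 1 and 2 have the lowest Vegfa bars, at 54.1 and 57.4 TPM, most of the Pfkp bar is retained intron in every library, and the protein-coding part varies less than the whole for Vegfa.

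The library's own share of TPM in retained-intron transcripts moved with these values. It was 3.65%, 3.51%, 5.48% and 5.93% in AVP males and 5.52% to 6.54% in saline males. In AVP females it was 3.90%, 6.78% and 5.19%, and in saline females 4.28% to 6.49%. The libraries with the lowest share, AVP male 1 and AVP male 2, had the lowest Vegfa, and the library with the highest share, AVP female 2, had the highest. With this share as a covariate, the male differences were -0.25 ± 0.13 for Vegfa, -0.17 ± 0.23 for Pfkp, -0.18 ± 0.12 for Arnt and -0.18 ± 0.09 for Pfkfb3, by limma. In that fit 1 of the 37 genes had an unadjusted p under 0.05, Ndrg1, at -0.29, beside 4.77% lower and 1.96% higher of all genes. Since the share itself differed between AVP and saline males, the effect of treatment and that of the share cannot be told apart in 8 libraries. Gapdh measured 1052 and 1200.1 TPM in AVP male 1 and AVP male 2, its lowest value being in AVP male 1, and 1277 TPM in AVP female 2.

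**Figure D4:**
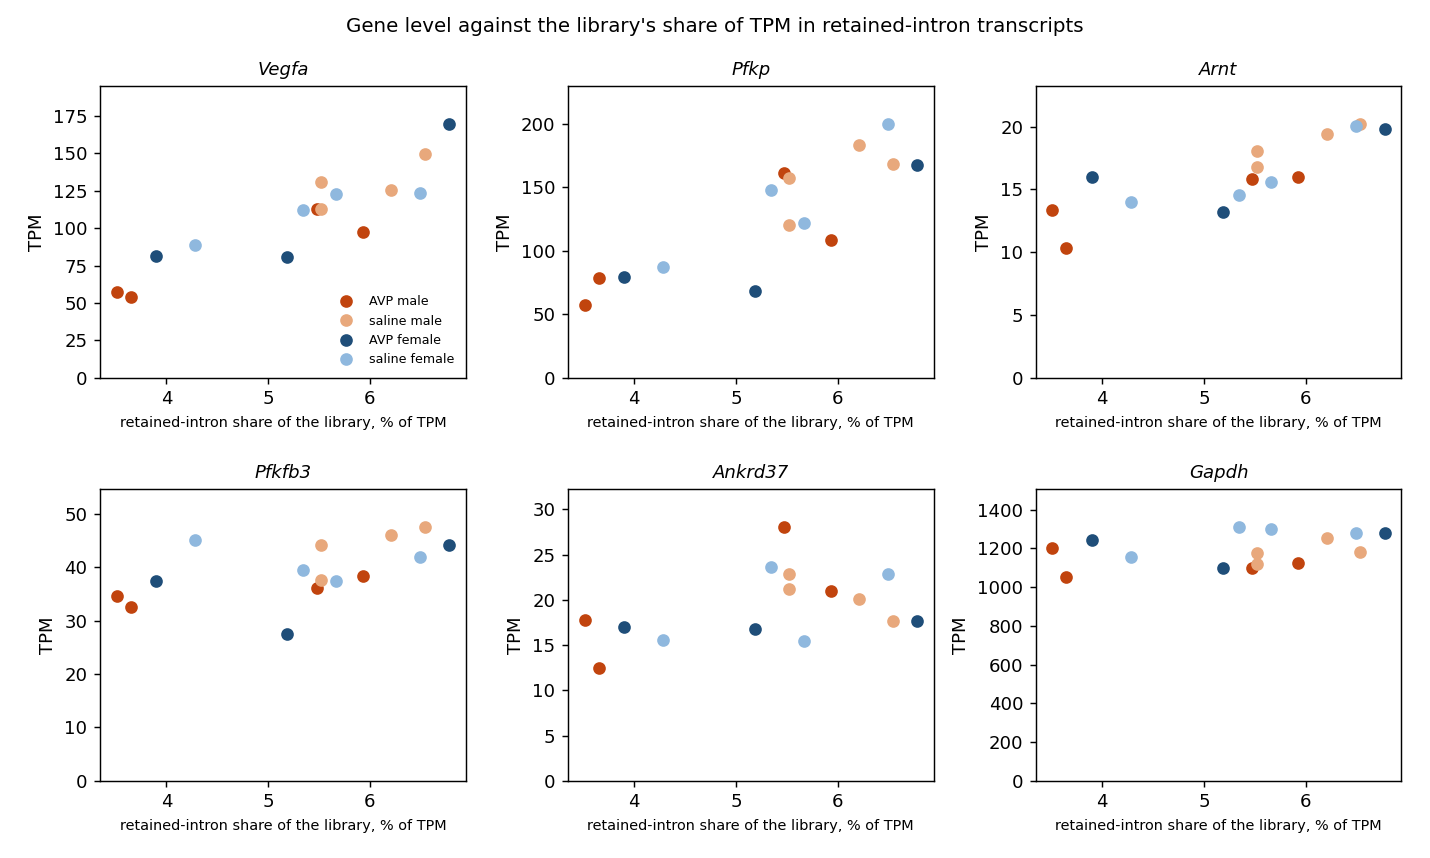
TPM of Vegfa, Pfkp, Arnt, Pfkfb3, Ankrd37 and Gapdh against the share of each library's TPM in retained-intron transcripts (%), each point 1 library. Vegfa, Pfkp and Arnt lie low in AVP male 1 and 2, at shares of 3.65% and 3.51%, and high at shares above 6%, and Gapdh spans 1052 to 1311 TPM, with its lowest value in AVP male 1.

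Gapdh, Ldha and Ldhb, enzymes often taken as constant, gave small differences that did not pass the test. Gapdh measured 1052, 1200.1, 1097 and 1124 TPM in AVP males and 1252, 1177, 1179 and 1118 in saline males. In females it measured 1243, 1277 and 1099 TPM with AVP and 1311, 1299, 1157 and 1278 with saline. Its difference was -0.08 ± 0.06 in males and -0.07 ± 0.09 in females, both near the median of all genes. Ldha measured 350.2, 368, 321 and 297 TPM in AVP males, 354, 342, 361 and 307 in saline males, 378, 374 and 281 in AVP females and 416, 373, 392 and 312 in saline females. Ldhb measured 206, 199.97, 191 and 218 TPM in AVP males, 218, 199.6, 188 and 185 in saline males, 210.2, 225 and 212 in AVP females and 196, 219, 199 and 222 in saline females. All groups overlapped, and the male differences were -0.03 ± 0.08 for Ldha and 0.04 ± 0.07 for Ldhb. The 95% interval of the Ldha difference, -0.22 to 0.15 in males and -0.44 to 0.20 in females, left out a log2 change of 0.5 in either direction.

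Eno1, enolase, measured 310.4, 309, 295 and 280.4 TPM in AVP males and 334, 321, 361 and 291 in saline males. Females held 338, 335 and 237 TPM with AVP and 367, 376, 338 and 322 with saline, where AVP female 3 was the lowest of all 15. Over both sexes the difference was -0.17 ± 0.08 (exact permutation p = 0.0278, adjusted limma p = 0.469), and without AVP female 3 it was -0.10. AVP female 3 was the lowest library for 13 of the 38 genes, 7 of them core glycolysis genes, and AVP female 2 the highest for 11. Transcripts annotated as microRNA took 12.7% of the TPM in AVP female 3 and 6.28% in AVP female 2. The other core enzymes, Hk1, Gpi1, Pfkl, Aldoa, Aldoc, Tpi1, Pgam1 and Pkm, with the carrier Slc16a1, had male differences from -0.23 (Slc16a1) to 0.10 (Tpi1) and female differences from -0.30 (Hk1) to -0.05 (Pkm and Slc16a1), none with an unadjusted p under 0.05. Under median-of-ratios scaling Tpi1 (0.22) and Pgam1 (0.14) were the 2 genes higher in AVP males at an unadjusted p under 0.05, with adjusted p of 0.39 and 0.421 by limma.

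To set HIF-responsive genes against housekeeping glycolysis within each library, the mean log2(TPM + 0.5) of the 17 HIF-responsive genes above the filter and of the 15 core glycolysis genes was taken. The HIF-responsive mean was 4.47 ± 0.14 (SD, n = 4) in AVP males and 4.64 ± 0.11 (n = 4) in saline males. In females it was 4.53 ± 0.17 (n = 3) with AVP and 4.55 ± 0.05 (n = 4) with saline. The core glycolysis mean was 7.33 ± 0.03 in AVP males, 7.42 ± 0.10 in saline males, 7.36 ± 0.24 in AVP females and 7.49 ± 0.06 in saline females. The difference of both means, HIF-responsive minus core, was -3.05, -2.81, -2.84 and -2.76 in AVP males and -2.90, -2.71, -2.75 and -2.75 in saline males. It was -2.85, -2.90 and -2.76 in AVP females and -2.93, -3.00, -2.88 and -2.97 in saline females. In each sex the groups overlapped, so that no AVP group stood apart from its saline group. The mean difference was lower by 0.09 with AVP in males and higher by 0.11 with AVP in females, and the members were chosen with results known, so no test was run on these means.

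**Figure D5:**
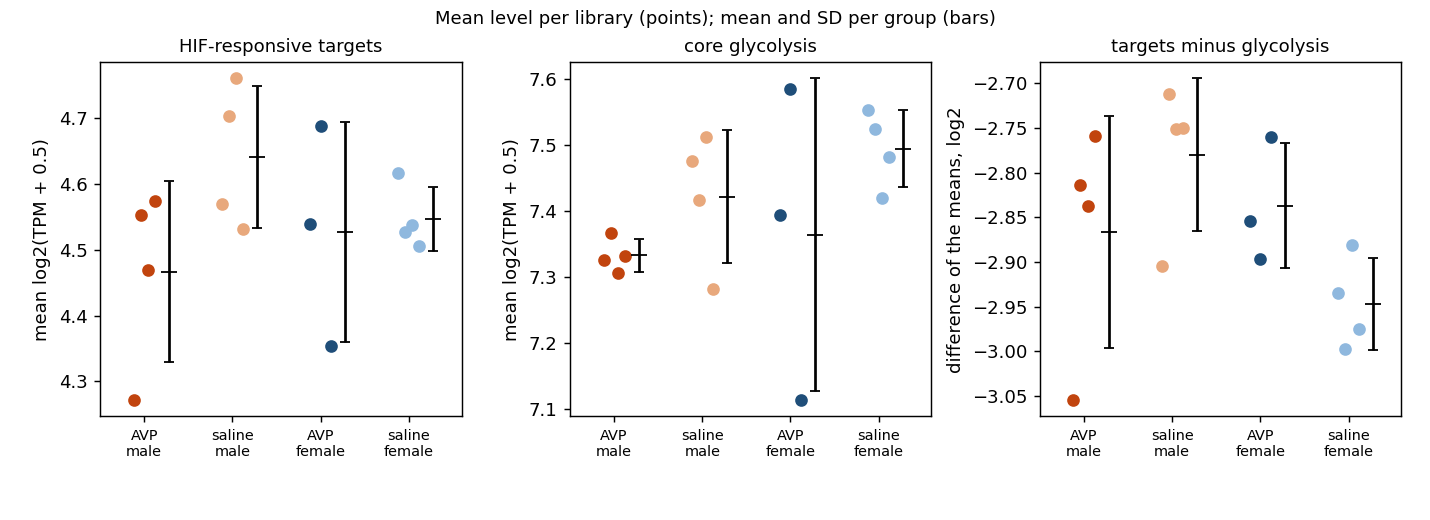
Mean log2(TPM + 0.5) of the 17 HIF-responsive genes (left) and of the 15 core glycolysis genes (middle), and their difference (right), each point 1 library, with the mean and SD of each group as bars. The ranges of AVP and saline libraries overlap in every panel and sex, and in the right panel the saline females lie lowest on average, at -2.95, with AVP females at -2.84.

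Between the sexes, with treatment as a covariate, 1 of the 37 genes had an unadjusted p under 0.05 and was higher in females, and 0 were lower, beside 0.65% higher and 0.743% lower of all genes. This was Pgk1 (phosphoglycerate kinase, chrX:106187100-106203699), the only X-linked gene of the 38. It measured 197, 216, 195 and 197 TPM in AVP males, 197, 205, 208 and 187 in saline males, 217, 224 and 197 in AVP females and 221, 246, 231 and 219 in saline females. Every saline female lay above every library labelled saline male, among them saline male 3 at 208 TPM. AVP female 3 lay among the AVP males. The female minus male difference was 0.14 ± 0.05 (adjusted p = 1, limma), and 0.15 without the library labelled saline male 3. With AVP, Pgk1 differed by 0.01 ± 0.06 in males and -0.11 ± 0.08 in females, and did not pass the test in either. The AVP effect differed between the sexes at an unadjusted p under 0.05 for 0 of the 37 genes, beside 1.62% of all genes with a lower and 2.52% with a higher effect in females.

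Other genes of the same pathways, taken from wider lists, were examined as well. Of 40 further HIF-related genes 38 were tested and of 31 further genes of glucose metabolism 23. None passed an adjusted p of 0.05 in any of the 5 comparisons. At an unadjusted p under 0.05, 4 HIF-related genes were lower and 0 higher with AVP in males, and 0 lower and 2 higher in females. The 4 are 10.5% of the 38, beside 12.4% lower of all genes in males, and the 2 are 5.26%, beside 2.34% higher of all genes in females. Of the glucose genes, 1 was lower in males and 1 higher in females, with 0 in the other directions, and each is 4.35% of the 23. Over both sexes the smallest p belonged to Bhlhe40, a HIF-induced transcriptional repressor, at -0.46 ± 0.16 (adjusted p = 0.462, limma), and among glucose genes to Pfkfb2, at -0.28 ± 0.10 (adjusted p = 0.462, limma). Bhlhe40 measured 7.92, 5.89, 9.48 and 7.08 TPM in AVP males and 18.1, 10.5, 9.68 and 12.1 in saline males, then 12.3, 7.18 and 7.29 in AVP females and 10.9, 9.28, 11.1 and 9.32 in saline females. Pfkfb2, which like Pfkfb3 sets the activator of phosphofructokinase, measured 20.2, 22.3, 25.3 and 26.4 TPM in AVP males and 31.7, 30.0, 32.4 and 30.2 in saline males. Such separation in males, AVP lower, held for 6.54% of all genes tested. Female Pfkfb2 values overlapped, at 23.5, 33.3 and 21.7 TPM with AVP and 27.9, 26.5, 26.7 and 32.9 with saline. In males the differences were -0.67 ± 0.21 for Bhlhe40 and -0.40 ± 0.09 for Pfkfb2, and in females -0.22 ± 0.21 and -0.14 ± 0.16. Angpt2, an endothelial growth factor antagonist that HIF also induces, was 0.78 ± 0.26 in females and 0.21 ± 0.32 in males and passed the test in neither, and the endothelial and mural marker sums were higher in AVP females too.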

How the data were processed

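RNA was measured by bulk RNA-seq of dorsal forebrain in 15 libraries. The authors trimmed reads (Trim Galore 0.4.1), quantified them with kallisto 0.43.1 against GENCODE M16 transcripts of GRCm38, and deposited transcript TPM per library. Their kit kept strand (TruSeq Stranded mRNA). Here the TPM of all transcripts of a gene were added up (GENCODE M21, also GRCm38), which gave 53337 genes. The study gives read numbers only as averages per sample, and TPM hold no counts. The depth of each library is therefore unknown and no counting interval was given. Genes with at least 1 TPM in 50% of the libraries of a comparison were tested with limma (mean-variance trend) on log2(TPM + 0.5), so that fold changes of low genes are understated. P-values were adjusted by Benjamini-Hochberg over all genes tested. Single genes were also tested by exact permutation of libraries. Where labels do not say which brains shared a litter, litter was not modelled.

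The 38 genes, the wider pathway lists and the marker lists were chosen with earlier results of these data known. Values in every library were given for a fixed set of 16 sensing, HIF-responsive and glycolytic genes and for each gene with an unadjusted p under 0.05 with AVP. The promoters printed were chosen after values were seen. Promoter sequences were RefSeq's, for GRCm38.p6. Alternatives comprised other scalings, filters and pseudocounts, protein-coding transcripts alone, covariates and leaving out single libraries.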

Additional observations from a re-analysis of the deposited data

Results flagged for a closer look

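Each of the 38 genes was examined in the 3 groups of 4 libraries. In 8 of these 114 groups the highest or lowest library stood apart from the others by Dixon's criterion, where chance would give about 5.7 at 1 in 20. In AVP males, Slc2a1 was lowest by a wide gap in AVP male 1 (29.9 TPM), while Pgk1 (216 TPM) and Slc16a3 (3.52 TPM) were highest in AVP male 2. Among saline males, Aldoa was lowest in saline male 4 (149 TPM), Car9 was lowest in saline male 1 (0.111 TPM) and Ndrg1 was lowest in saline male 2 (78.7 TPM). In saline females, Hk2 was highest in saline female 4 (4.88 TPM) and Ndrg1 was highest in saline female 2 (87.8 TPM).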

How the results depend on the processing

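No gene of the 37 passed an adjusted p of 0.05 under any alternative except within libraries 1 to 8, chosen after seeing the data, where 1 did in males (Vegfa, -1.19) beside 4 higher and 19 lower of all 15543 genes, and 2 did in both sexes (Vegfa, -0.93, and Pfkp, -0.99) beside 7 higher and 1062 lower of all 15113. The cause was not tested. Libraries 1 to 8 hold only AVP male 1 and 2, saline male 1 and 2, AVP female 1, and saline female 1 and 2. Results within them, also those of females given below, therefore rest on very few libraries. The number of genes with an unadjusted limma p under 0.05 moved more, and the percentage in parentheses is the share of all genes in either direction in the same fit. In males it was 6 (13.5%), against 1 with the retained-intron share as covariate (6.73%), 2 within libraries 13 to 20 (5.94%), and 3 to 7 when single libraries were left out, with 3 without AVP male 1 (8.13%) or without the library labelled saline male 3 (8.14%) and 7 without AVP male 4 (19.6%). In females it was 0 (4.51%), against 1 under quantile normalization (4.81%), median-of-ratios scaling (5.44%), protein-coding transcripts alone (6.15%) or removal of GC and length trends (6.38%), 3 within libraries 1 to 8 (10.2%), and 0 to 4 with single libraries left out, with 2, 4 and 1 without AVP female 1 (6.58%), 2 (10.5%) and 3 (3.4%). In both sexes it was 6 (10.4%), against 2 under quantile normalization (7.93%) or protein-coding transcripts alone (7.23%), 3 under median-of-ratios scaling (7.38%) or the retained-intron covariate (8.08%), 1 within libraries 13 to 20 (4.18%), and 2 (without AVP female 3, 6.16%) to 8 (without AVP female 2, 24%), with 3 without AVP male 2 (9.12%), saline male 1 (6.38%) or the library labelled saline male 3 (7.33%). For the AVP effect, female minus male, it was 0 (4.14%), against 1 under median-of-ratios scaling (5.76%) or without the mean-variance trend (4.19%), 2 with at least 5 TPM in every library (3.73%) or without GC and length trends (6.72%), 4 with protein-coding transcripts alone (5.42%) or within libraries 1 to 8 (4%), and 0 to 4 with single libraries left out, 4 without AVP female 3 (8%). For female minus male it was 1 (1.39%), against 2 under quantile normalization (2.1%), median-of-ratios scaling (1.81%), the run covariate (1.68%), libraries 1 to 8 (2.15%), or the run covariate without the library labelled saline male 3 (1.73%), 0 within libraries 13 to 20 (1.23%), and 1 to 8 with single libraries left out, 8 without AVP female 3 (1.82%) and 3 without saline male 1 (1.47%). Of the genes with an unadjusted p under 0.05 with AVP, only Bnip3l changed sign, in 1 of its 22 alternatives in males (0.02 over protein-coding transcripts alone). The GC, length, run-subset and retained-intron alternatives were added after seeing the data. No paired analysis was possible because the replicate numbers are accession-order names and the labels do not tie brains to litters. With 4 libraries a group, an exact test over males cannot give a p below 0.0286.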
